A study of Mus musculus with 12 samples.

Results

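The knockout effect without the diet was measured in livers of mice on normal chow. Of the 12 liver RNA libraries of the series, 6 belong to this comparison. The KO group held 3 libraries from mice described as hepatocyte-specific Pld1 knockouts, and the control group held 3 libraries from mice with the floxed Pld1 gene, in both cases on chow. The samples' genotype label calls the KO livers a Pld1 knockdown and the controls WT, so the descriptions and the genotype labels differ in wording. KO is used here. The remaining 6 libraries are the same genotypes on a high-fat diet (HFD), which the series description puts at 20 weeks, and they serve below to set each chow difference beside the one on HFD. The sources used here do not give the Cre driver, the age or sex of the mice or the time on chow. Nor is it stated whether each library of a group is another animal, so p-values describe the spread among these libraries alone, and that spread may be technical.

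Phospholipase D1, the product of Pld1, cleaves phosphatidylcholine into choline and phosphatidic acid. Phosphatidic acid is both a precursor of triglyceride and other phospholipids and a lipid signal at membranes. Hepatocytes, the main cell of the liver, carry out lipid, bile acid, amino acid and drug metabolism and secrete most plasma proteins. When they receive inflammatory cytokines such as IL-6 and IL-1, they change that secretion in what is called the acute phase response, in which serum amyloid A, haptoglobin and fibrinogen are produced in larger amounts.

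The deposited table holds counts of reads per gene. Totals ranged from 19673649 to 21473191 in the KO libraries and from 18215008 to 20559861 in the control libraries, and 14778 genes had enough counts to be tested. Levels are counts per 1000000 counts of the library (CPM), scaled for library composition, and are compared between groups and not between genes, since they are not divided by transcript length. Summed levels of cell type markers are the exception. They are counts per 1000000 without that scaling, so they are not on the scale of the single genes. Fold changes are on the log2 scale, KO over control, with standard errors (SE). A gene was called past the threshold at an adjusted p under 0.05 in edgeR's quasi-likelihood test, which used all 12 libraries to estimate the spread. Libraries of a group were close to each other: over the 2762 genes at 50 CPM or more, the median coefficient of variation was 2.54% in the KO livers and 2.34% in the control livers. Small differences therefore passed the threshold, and fold sizes are given with each call. A tissue sample mixes cells, so a lower level can come from fewer cells of a type or from less RNA per cell, and these cannot be told apart here.

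Pld1 (ENSMUSG00000027695), the targeted gene, had 3.95, 3.45 and 4.67 CPM in KO livers, against 11.3, 11.3 and 9.07 CPM in control livers. Every KO library was below every control library, and the KO mean was 38.1% of the control mean (log2 fold change -1.39, SE 0.14, adjusted p = 1.08e-09). Counts over the whole gene include other cells than hepatocytes and any exon outside the deleted part, so the remaining level does not measure how complete the deletion was. Hepatocyte markers were present in both groups at nearly the same summed level, 96024 to 97371 CPM in KO livers and 96983 to 97795 CPM in control livers over 10 markers that include Alb, Ttr and Apoa1, of which 5 were higher and 5 lower (median 0.02). Of 11 exocrine pancreas markers 7 had no count in any chow library, among them Amy2a5 and Pnlip, and all 11 summed to 15.5 to 15.6 CPM in KO livers against 23.2 to 25.6 CPM in control livers. Most of that sum was Cela1, the only one with enough counts to be tested. Of 8 skeletal muscle markers 3 had no count, among them Ckm, and all 8 summed to 0.762 to 1.06 CPM in KO livers against 0.535 to 0.823 CPM in control livers.

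Between KO and control livers on chow 4604 of 14778 genes passed the threshold (31.2%), 2341 of them higher (15.8%) and 2263 lower (15.3%). Most differences were small. The median size among the called genes was 0.36 on the log2 scale, and 1448 genes differed by at least 1.5-fold (9.8%). Larger differences leaned upwards, with 544 genes higher by at least 2-fold (3.68%) and 201 lower by at least 2-fold (1.36%). The even split of all calls depended on the processing. After correcting each library for its trends with transcript length and GC 1932 genes were higher and 3064 lower. That correction also re-centred each library, and the median log2 fold change of all tested genes moved from -0.0026 to -0.0455. How much of the shift goes with length and GC was not separated. With every gene set to a coefficient of variation of 20% the calls were 662 higher and 269 lower. Calls were found most often among abundant genes, at 92.7% of the 247 genes above 500 CPM and 11.9% of the 2104 genes below 1 CPM. Direction went with abundance too. Above 500 CPM 151 genes were lower and 78 higher, and at 50 to 500 CPM 862 were lower and 546 higher. Below 1 CPM 170 were higher and 80 lower. The shares of all tested genes that are set beside the lists are not matched for abundance.

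**Figure D1:**
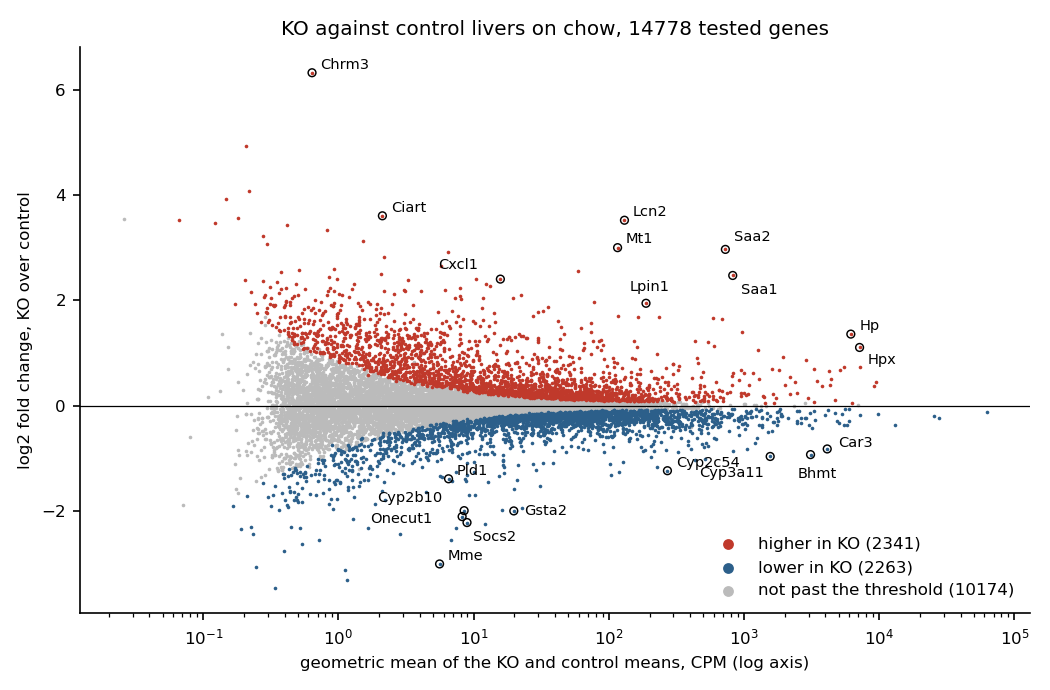
Each point is 1 of 14778 tested genes, with the geometric mean of the KO and control means in CPM on a log axis and the log2 fold change of KO over control livers on chow on the vertical axis. Red points are the 2341 genes higher in KO and blue points the 2263 lower, and secreted acute phase genes such as Saa2 and Hp stand out among the abundant higher genes.

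Acute phase genes were higher in KO livers for the largest share of members among the 37 pathway lists. Of 34 tested acute phase genes 32 were higher in KO livers and 1 was lower, with a median log2 fold change of 1.15, where all tested genes had a median of -0.0026. At least 1.5-fold was reached by 29 of them, all higher, beside 6.67% of all tested genes higher and 3.13% lower by that fold. Saa2 (ENSMUSG00000057465), which encodes serum amyloid A2, an apolipoprotein of high-density lipoprotein in inflammation, had 2020.1, 2034 and 2052 CPM in KO livers, against 263, 254 and 263 CPM in control livers. The groups were far apart, with a 7.83-fold difference (log2 fold change 2.97, SE 0.025, adjusted p = 3.61e-39). Saa1 (ENSMUSG00000074115), its close paralog, had 1954, 1939.7 and 1936 CPM in KO livers, against 346, 344 and 359.5 CPM in control livers. That is a difference of the same order (log2 fold change 2.47, SE 0.024, adjusted p = 2.50e-37), and since Saa1 and Saa2 are near-identical their reads may have been split between them in counting. Saa3, expressed in macrophages and other cells as well as hepatocytes, stood at 23.9 ± 1.72 CPM in KO livers and 4.48 ± 0.0328 CPM in control livers (log2 fold change 2.41, SE 0.11, adjusted p = 1.28e-18).

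Lcn2 (ENSMUSG00000026822), which encodes lipocalin-2, a protein that binds bacterial siderophores, had 455, 441 and 431 CPM in KO livers, against 36.7, 38.7 and 40.0 CPM in control livers. The groups did not overlap, and the KO mean was 11.5 times the control mean (log2 fold change 3.52, SE 0.041, adjusted p = 2.41e-35). Mt1, a metallothionein that binds zinc and is induced by cytokines and glucocorticoids, had 338, 333 and 315 CPM in KO livers, against 39.9, 43.5 and 39.5 CPM in control livers, and its groups did not overlap (log2 fold change 3.002, SE 0.047, adjusted p = 1.50e-31). Among the most abundant transcripts of the liver, Hp (ENSMUSG00000031722), encoding the haemoglobin-binding haptoglobin, had 9989.5, 9873 and 9743 CPM in KO livers, against 3867, 3794 and 3879 CPM in control livers. Its KO libraries were all above its control libraries (log2 fold change 1.36, SE 0.015, adjusted p = 3.40e-36). Hpx, encoding the haem-binding hemopexin, had 10655, 10547 and 10262 CPM in KO livers, against 4904, 4883 and 4838 CPM in control livers, again with no overlap (log2 fold change 1.11, SE 0.015, adjusted p = 1.17e-33). Outside the list, Fgl1, which encodes a secreted fibrinogen-like protein, averaged 1209 ± 30.5 CPM in KO livers and 387 ± 5.19 CPM in control livers (SD, n = 3 each). Orm1 and Orm2, which encode the plasma lipid carriers orosomucoid 1 and 2, rose by 1.06 and 1.67, Fgb, the fibrinogen beta chain, by 0.73, and Cp, the copper protein ceruloplasmin, by 0.69 on the log2 scale.

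Receptors and transcription factors of the same list were also higher, and Il6ra, Stat3, Cebpd and Cebpb were singled out after their values were seen. Il6ra, the receptor subunit that binds IL-6, rose by 1.36, Stat3, the transcription factor that carries its signal, by 0.70, and Socs3, the feedback inhibitor of that pathway, stood at 26.2 ± 1.39 CPM in KO livers and 7.72 ± 0.324 CPM in control livers (log2 fold change 1.76, SE 0.088, adjusted p = 1.70e-17). Il1r1, the signalling receptor of IL-1 and not in the list, had 123, 126 and 130.1 CPM in KO livers, against 44.3, 41.4 and 42.9 CPM in control livers, with no overlap (log2 fold change 1.56, SE 0.039, adjusted p = 1.06e-25). Cebpd and Cebpb, transcription factors of acute phase genes, rose by 1.24 and 0.59. The single lower member was Hamp, encoding the iron hormone hepcidin, at -0.31, and the member not past the threshold was Serpina3k, both picked out after their values were seen. With every gene set to a coefficient of variation of 20%, 26 of the 34 were still higher and none lower.

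The start-site regions of 4 of these inflammatory genes are shown because they carry the motifs searched for. RefSeq promoter sequences (build GRCm38.p6, 250 bases before to 50 after a start) were found for 27 of the 34 tested acute phase genes. Motifs were searched on both strands as TTGCNNAA for C/EBP factors, TTCNNNGAA for STAT factors and, for NF-kB, GGGA followed after any 3 bases by TCC. Capitals mark the matches. The regions are chr7:46742931-46743230 on the minus strand for Saa1, chr7:46751583-46751882 on the plus strand for Saa2, chr2:32387690-32387989 on the minus strand for Lcn2 and chr5:90890995-90891294 on the plus strand for Cxcl1.
Saa1: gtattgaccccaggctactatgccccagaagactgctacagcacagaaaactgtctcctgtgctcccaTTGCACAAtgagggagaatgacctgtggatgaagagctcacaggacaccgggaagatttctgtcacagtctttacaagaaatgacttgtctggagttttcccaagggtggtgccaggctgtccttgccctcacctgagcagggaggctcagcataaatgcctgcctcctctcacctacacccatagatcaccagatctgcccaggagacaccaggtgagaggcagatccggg
Saa2: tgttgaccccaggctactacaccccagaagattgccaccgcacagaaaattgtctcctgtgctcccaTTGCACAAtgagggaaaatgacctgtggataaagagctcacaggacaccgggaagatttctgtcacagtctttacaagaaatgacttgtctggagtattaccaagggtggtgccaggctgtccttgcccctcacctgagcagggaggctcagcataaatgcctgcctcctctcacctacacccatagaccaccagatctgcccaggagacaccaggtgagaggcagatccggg
Lcn2: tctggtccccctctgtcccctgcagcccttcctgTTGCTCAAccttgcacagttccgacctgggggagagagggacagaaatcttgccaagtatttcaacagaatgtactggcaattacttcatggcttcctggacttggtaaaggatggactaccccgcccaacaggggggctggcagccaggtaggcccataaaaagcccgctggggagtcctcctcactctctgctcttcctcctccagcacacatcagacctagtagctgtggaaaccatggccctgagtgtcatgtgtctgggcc
Cxcl1: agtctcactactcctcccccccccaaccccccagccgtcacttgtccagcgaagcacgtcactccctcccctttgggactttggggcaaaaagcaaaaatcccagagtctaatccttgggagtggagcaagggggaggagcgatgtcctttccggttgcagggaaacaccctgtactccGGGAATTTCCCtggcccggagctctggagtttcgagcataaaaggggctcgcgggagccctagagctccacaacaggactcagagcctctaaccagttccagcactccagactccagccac
Saa1 and Saa2 hold the same C/EBP match at nearly the same place, centred at -178 and -179 relative to the start, and Lcn2 holds another at -212. Cxcl1 holds 2 overlapping NF-kB matches on opposite strands, centred at -66 and -65. A C/EBP match was found in 12 of 30 promoters of the 27 acute phase genes (40%), against 9.09% of the 13615 promoters of tested genes. A STAT match was in 26.7% of these promoters, against 6.95% of promoters of tested genes. No acute phase promoter held the NF-kB motif, which 22.2% of 18 chemokine gene promoters and 5.34% of promoters of tested genes held. Promoters were not divided by the change in KO livers, so these shares describe the lists and not the knockout. A match of letters does not show that a factor binds there.

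**Figure D2:**
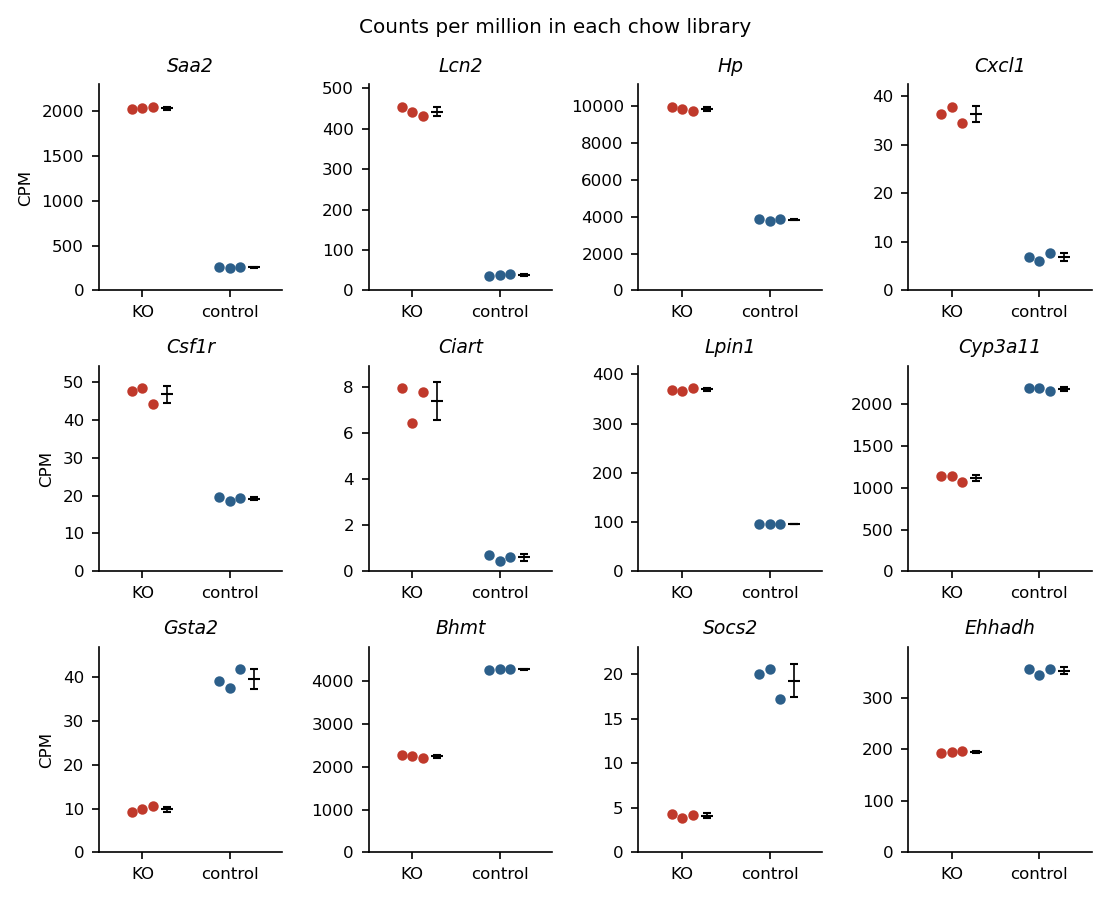
CPM of 12 genes in each of the 3 KO and 3 control libraries on chow, with the mean and SD beside the points and axes starting at 0. KO and control libraries are apart in every panel, and the spread within a group is small beside the gap for Saa2, Lcn2, Hp and Lpin1.

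Chemokine genes were mostly higher. Of 23 tested genes of chemokines and their receptors 15 were higher and 1 was lower, with a median of 1.19. The median was 0.70 over 30 genes with no filter on low counts and 0.67 over 9 genes, 6 of them higher, with a filter of 5 CPM. Cxcl1, a neutrophil-attracting chemokine, had 36.3, 37.9 and 34.6 CPM in KO livers, against 6.92, 5.99 and 7.63 CPM in control livers, so that the lowest KO library was well above the highest control library (log2 fold change 2.40, SE 0.087, adjusted p = 2.39e-21). Cxcl14, a chemokine expressed by epithelial and stromal cells, had 64.2, 70.4 and 69.1 CPM in KO livers, against 17.7, 18.9 and 18.7 CPM in control livers, without overlap (log2 fold change 1.88, SE 0.069, adjusted p = 4.34e-21). Ccr2, the receptor of the monocyte chemokine CCL2, was low but higher in KO livers, at 4.31 ± 0.964 CPM in KO livers and 1.27 ± 0.128 CPM in control livers (log2 fold change 1.76, SE 0.21, adjusted p = 3.55e-08). Ccl6, a myeloid chemokine, rose by 1.39. The lower member was Cxcl12, a stromal chemokine, at -0.09. At a coefficient of variation of 20%, 12 were higher and none lower.

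Of 39 antigen presentation and interferon genes, 22 rose and 2 fell, with a median of 0.25. The class II genes moved together: Cd74, the invariant chain, stood at 60.4 ± 1.37 CPM in KO livers and 31.6 ± 1.08 CPM in control livers (log2 fold change 0.93, SE 0.053, adjusted p = 5.87e-16), and H2-Ab1, H2-Aa and H2-Eb1, which encode class II chains, rose by 0.85, 0.73 and 0.78. Ifi27l2b, an interferon-inducible gene, rose by 1.32. The complement and coagulation list was smaller in effect, with 21 of 40 higher, 6 lower and a median of 0.12, and with the length and GC trend removed 21 were higher and 10 lower. C3, the central complement protein and one of the 10 most abundant genes of the table, had 10902, 10874 and 11151 CPM in KO livers, against 8179, 7972 and 8001 CPM in control livers (log2 fold change 0.45, SE 0.013, adjusted p = 1.51e-23). C4b rose by 0.55, C8a by 0.61 and Hc, complement C5, by 0.51. In this list 1 gene was still called at a coefficient of variation of 20%.

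Markers of macrophages, neutrophils and B and plasma cells were mostly higher, and no T and NK cell marker passed. Of 15 Kupffer cell and macrophage markers 14 were higher and none was lower, with a median of 1.21, and their summed level was 516 to 529.8 CPM in KO livers against 207 to 216 CPM in control livers. Clec4f, a lectin that defines Kupffer cells, had 101, 98.5 and 97.9 CPM in KO livers, against 44.7, 41.7 and 44.6 CPM in control livers (log2 fold change 1.19, SE 0.044, adjusted p = 5.16e-21). Csf1r, the receptor for the macrophage growth factor CSF1, had 47.5, 48.5 and 44.2 CPM in KO livers, against 19.5, 18.7 and 19.3 CPM in control livers (log2 fold change 1.29, SE 0.059, adjusted p = 2.17e-18), and neither gene's groups overlapped. Cd5l, a secreted macrophage protein, rose by 1.48, the complement gene C1qa by 1.21 and the lysozyme gene Lyz2 by 1.08. At a coefficient of variation of 20%, 13 of the 15 were still higher.

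Neutrophil markers were higher for 11 of 12 members, with a median of 1.52. Their summed level of 488 to 509.5 CPM in KO livers against 55.0 to 59.0 CPM in control livers was mostly Lcn2, which hepatocytes also make in the acute phase. Without Lcn2 the sum was 55.0 to 57.6 CPM in KO livers against 18.9 to 19.6 CPM in control livers. S100a9, a calcium-binding protein of neutrophils, had 13.2, 12.8 and 12.95 CPM in KO livers, against 3.63, 4.81 and 4.36 CPM in control livers (log2 fold change 1.598, SE 0.14, adjusted p = 2.46e-11), and Ngp, a granule protein of immature neutrophils, had 12.5, 10.1 and 10.9 CPM in KO livers, against 4.02, 4.18 and 3.87 CPM in control livers (log2 fold change 1.47, SE 0.14, adjusted p = 3.97e-10). Both were at low levels with no overlap. Prtn3, the granule protease proteinase 3 and not in the list, stood at 46.9 ± 1.10 CPM in KO livers and 10.9 ± 0.681 CPM in control livers (log2 fold change 2.11, SE 0.075, adjusted p = 1.44e-21).

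B and plasma cell markers were higher for 6 of 11 members, none lower (median 0.76), with summed levels of 71.1 to 77.7 CPM in KO livers against 33.9 to 35.6 CPM in control livers, and Igkc, the kappa light chain, had 21.4, 19.8 and 15.4 CPM in KO livers, against 7.70, 6.73 and 5.50 CPM in control livers (log2 fold change 1.51, SE 0.12, adjusted p = 2.15e-12). T and NK cell markers were low, with none of 3 tested members past the threshold (median -0.20, positive in 4 of the alternatives) and sums of 5.64 to 7.05 CPM in KO livers against 4.06 to 6.66 CPM in control livers. Erythroid markers were higher for 5 of 8 and lower for 1 (median 0.83), with sums of 237 to 246 CPM in KO livers against 195 to 203 CPM in control livers. The globin genes Hbb-bs and Hba-a1 rose by 0.93 and 0.87, with reads possibly shared between near-identical globin copies, and Alas2, the haem synthesis enzyme of red cells, fell by 0.35 on the log2 scale. Sinusoidal endothelial markers were higher for 9 of 14 (median 0.26, sums of 327 to 334 CPM in KO livers against 274 to 286 CPM in control livers), stellate cell markers for 5 of 12 with 1 lower (median 0.20, 672 to 674 CPM in KO livers against 633 to 645 CPM in control livers). Of the 7 tested cholangiocyte markers 2 were higher (median 0.62), of which Spp1, encoding the secreted protein osteopontin, had 159.6, 156 and 146 CPM in KO livers, against 38.2, 43.1 and 36.6 CPM in control livers (log2 fold change 1.97, SE 0.050, adjusted p = 1.76e-25). The other, Sox9, a duct transcription factor, lost its call without KO replicates 2 or 3 or control replicates 1 or 2, and the list median was 0.31 without KO replicate 1, 0.33 without KO replicate 2 and 0.33 without control replicate 2. The bile duct keratins Krt7 and Krt19 and the adhesion gene Epcam did not pass, at adjusted p = 0.888, 0.092 and 0.776, with Krt7 and Epcam named here after their values were seen. Without Spp1 the cholangiocyte markers summed to 18.8 to 20.9 CPM in KO livers against 15.4 to 16.3 CPM in control livers. Of 5 tested mesothelial markers 2 were higher (median 0.15), with sums of 284 to 286 CPM in KO livers against 253 to 256 CPM in control livers. Of these 2, Lrrn4 lost its call without any 1 KO replicate or without control replicates 2 or 3, with adjusted p up to 0.258, and the median was 0.25 without control replicate 1. The other, Krt8, rose by 0.15 and was the only mesothelial marker tested with a filter of 5 CPM. Most of the mesothelial sum was therefore Krt8, and the difference in sums does not show a change in mesothelial cells. Of 4 tested adipocyte markers 2 were lower (median -0.51), with 1 lower without KO replicates 1 or 2 or control replicates 1 or 3 and 3 lower without KO replicate 3. The 8 written markers summed to 3087 to 3132 CPM in KO livers against 5374 to 5472 CPM in control livers, most of it Car3, and Lep and Plin1 had no count in any chow library. The single tested pancreas marker, Cela1, was lower by -0.68, and the single tested muscle marker did not pass. How far the marker changes go with the acute phase, chemokine and class II changes was not tested.

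**Figure D3:**
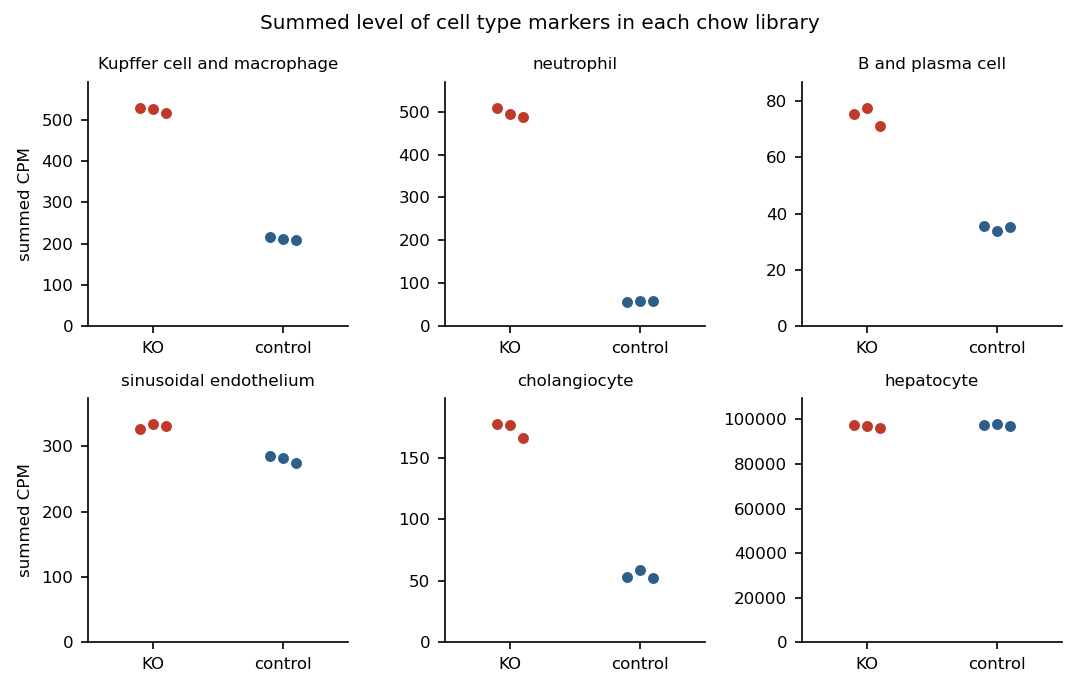
Summed CPM of 6 cell type marker lists in each chow library, not scaled for library composition, KO left of control, with axes starting at 0. Macrophage, neutrophil, B and plasma cell, sinusoidal endothelium and cholangiocyte sums are higher in all 3 KO libraries than in any control library. Hepatocyte sums overlap between the groups on this unscaled measure, and overlap after scaling was not tested. The neutrophil sum is mostly Lcn2 and the cholangiocyte sum mostly Spp1.

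Most tested endoplasmic reticulum stress genes rose. Of 25 such genes 20 were higher and 1 was lower, with a median of 0.20. Herpud1, a component of endoplasmic reticulum protein degradation, had 608, 603 and 614 CPM in KO livers, against 347, 344 and 349 CPM in control livers (log2 fold change 0.81, SE 0.023, adjusted p = 2.42e-24). The chaperones Hspa5, Hyou1 and Calr rose by 0.24, 0.32 and 0.22, and Creld2 by 0.57. In the integrated stress response list 12 of 24 were higher and 2 were lower (median 0.17), and with the length and GC trend removed 9 were higher and 6 lower. Ddit4, an inhibitor of mTOR signalling, had 46.1, 50.7 and 52.99 CPM in KO livers, against 18.5, 12.9 and 14.7 CPM in control livers (log2 fold change 1.71, SE 0.081, adjusted p = 4.56e-18). Asns, asparagine synthetase, rose by 1.24 and Chac1, which degrades glutathione, by 1.45, while Atf4, which encodes the transcription factor of this pathway, was at -0.34. Heat shock genes were higher for 8 of 20 and lower for 1 (median 0.08), led by Hspa8 at 0.61 and Hspa1b at 0.81. At a coefficient of variation of 20% the endoplasmic reticulum and heat shock lists kept 1 higher call each and the integrated stress list 5.

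Cdkn1a, the cell cycle inhibitor p21, had 72.3, 75.6 and 76.8 CPM in KO livers, against 27.2, 25.6 and 26.5 CPM in control livers and did not overlap between groups (log2 fold change 1.502, SE 0.044, adjusted p = 8.70e-24). Of the 32 cell cycle and p53 genes 4 were higher (12.5%) and 1 lower (3.125%), below the 15.8% and 15.3% of all tested genes. The list median was 0.08, and -0.00543 without control replicate 1. Without KO replicate 1 or control replicate 2, 2 were higher. The lower one, the mitotic gene Cdc20, fell (log2 fold change -0.95, SE 0.25, adjusted p = 0.0029). Of the 4 higher ones Ccnd1, Bax and Mdm2 differed by at most 0.40 on the log2 scale. Each of these 3 lost its call without 1 or more single libraries, with adjusted p up to 0.0831 for Ccnd1 without control replicate 3, 0.0801 for Bax without KO replicate 3 and 0.179 for Mdm2 without KO replicate 2. Of 24 immediate early genes, 11 rose and 7 fell (median 0.21). The orphan receptor Nr4a1 had 7.91, 8.58 and 8.03 CPM in KO livers, against 33.0, 30.7 and 33.7 CPM in control livers (log2 fold change -1.99, SE 0.085, adjusted p = 2.57e-19), and Myc, the growth transcription factor, had 5.02, 5.78 and 5.33 CPM in KO livers, against 14.5, 13.6 and 15.4 CPM in control livers (log2 fold change -1.43, SE 0.13, adjusted p = 4.44e-11). Both were lower in every KO library. Gadd45g, a growth arrest gene, Junb, an AP-1 subunit, and Zfp36, which promotes decay of cytokine mRNAs, rose by 1.40, 0.62 and 0.55.

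Of 23 clock genes, 11 rose and 3 fell, with a median of 0.22 and a wide range. Without KO replicate 1, control replicate 1 or control replicate 2 the median was 0.0949, 0.0743 and 0.12. Ciart, a transcriptional repressor of the clock, had 7.96, 6.44 and 7.77 CPM in KO livers, against 0.726, 0.442 and 0.644 CPM in control livers (log2 fold change 3.61, SE 0.20, adjusted p = 5.26e-16). Dbp, the clock-driven transcription factor, had 4.81, 5.13 and 4.72 CPM in KO livers, against 0.893, 0.540 and 1.14 CPM in control livers (log2 fold change 2.51, SE 0.20, adjusted p = 1.89e-12). For both genes every KO library was above every control library. Usp2, a ubiquitin protease under clock control, rose by 1.81 and Per1, a core repressor, by 0.77. Of the activating arm, Arntl (encoding BMAL1) and Npas2 fell by 0.37 and 0.52 on the log2 scale, a pair chosen after its values were seen. No source used here gives the hour at which livers were taken, so that a difference in sampling time and one in the clock cannot be told apart.

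Of 27 matrix genes, 20 rose and none fell, with a median of 0.44. Col1a2, a chain of type I collagen, rose by 0.95, and Col3a1, type III collagen, by 0.63. The basement membrane gene Col4a1 had 27.6, 30.5 and 27.0 CPM in KO livers, against 20.3, 17.5 and 18.8 CPM in control livers (log2 fold change 0.59, SE 0.070, adjusted p = 2.26e-08). Acta2, the actin of activated stellate cells, was not past the threshold, at -0.05 with adjusted p = 0.902, and was singled out after its value was seen. With the coefficient of variation set to 20%, 6 of the 27 were still higher.

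Most tested genes of drug metabolism fell. Among 23 targets of the xenobiotic receptors CAR and PXR, 17 fell and 4 rose, with a median of -0.69. Cyp3a11, a main drug-oxidising cytochrome P450 of mouse liver, had 1142, 1136 and 1070.2 CPM in KO livers, against 2196, 2191 and 2157 CPM in control livers, or 51.2% of the control mean (log2 fold change -0.97, SE 0.025, adjusted p = 3.25e-25). Cyp2c54 had 175, 179 and 176 CPM in KO livers, against 412, 411 and 426 CPM in control livers (log2 fold change -1.24, SE 0.031, adjusted p = 1.56e-25), and its relatives Cyp2c50 and Cyp2c37 fell by 0.86 and 0.88 on the log2 scale. Reads of the similar Cyp2c genes may have been shared. Cyp2b10, the classical CAR target, was low and had 3.55, 5.09 and 4.11 CPM in KO livers, against 15.4, 18.1 and 17.5 CPM in control livers (log2 fold change -1.996, SE 0.15, adjusted p = 3.51e-13), while Nr1i3, which encodes CAR itself, stood at 14.6 ± 1.72 CPM in KO livers and 25.0 ± 2.28 CPM in control livers (log2 fold change -0.78, SE 0.082, adjusted p = 2.19e-09). Under a 20% coefficient of variation 11 of the 17 were still lower and none higher.

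Conjugating enzymes fell as well. Of 23 tested glucuronosyl- and sulfotransferase genes 20 were lower and none was higher, with a median of -0.37. Ugt1a9 had 69.7, 70.0 and 69.6 CPM in KO livers, against 156, 148 and 146 CPM in control livers (log2 fold change -1.10, SE 0.036, adjusted p = 1.94e-22), a gene whose exons overlap with other Ugt1a genes. Ugt2a3, Ugt2b1 and Sult2a8 fell by 0.74, 0.62 and 0.61 on the log2 scale, and Papss2, which makes the sulfate donor, by 0.64. Of 35 NRF2 and glutathione genes 20 were lower and 3 higher (median -0.25). Gsta2, a glutathione transferase, had 9.33, 9.84 and 10.5 CPM in KO livers, against 39.2, 37.6 and 42.0 CPM in control livers (log2 fold change -2.002, SE 0.075, adjusted p = 7.19e-21), and Gstt3 had 22.9, 22.3 and 21.6 CPM in KO livers, against 46.2, 48.1 and 48.5 CPM in control livers (log2 fold change -1.10, SE 0.057, adjusted p = 4.74e-17). The abundant Gsta3 and Gstm1 fell by 0.48 and 0.40. In the opposite direction, Hmox1, the haem-degrading enzyme and also a macrophage gene, stood at 25.8 ± 1.19 CPM in KO livers and 10.7 ± 1.49 CPM in control livers (log2 fold change 1.27, SE 0.087, adjusted p = 8.35e-14). Pericentral and aryl hydrocarbon receptor genes were mixed, with 6 higher and 7 lower of 23 (median -0.04). Cyp2a5, the coumarin hydroxylase, and Cyp2e1, the ethanol-oxidising P450, fell by 0.87 and 0.30. With the coefficient of variation set to 20%, the conjugation list kept 4 lower calls and the NRF2 and glutathione list 4 lower and 1 higher.

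Of 45 fatty acid oxidation genes, 34 fell and 4 rose, with a median of -0.20. Pdk4, the kinase that shuts pyruvate out of oxidation, had 11.96, 12.2 and 14.2 CPM in KO livers, against 33.1, 35.2 and 33.4 CPM in control livers (log2 fold change -1.41, SE 0.069, adjusted p = 1.34e-17). Ehhadh, the peroxisomal bifunctional enzyme, had 194, 195 and 198 CPM in KO livers, against 357, 345 and 357 CPM in control livers (log2 fold change -0.85, SE 0.027, adjusted p = 5.63e-23), and Acaa1b, a peroxisomal thiolase, fell by 0.71. The Cyp4a fatty acid hydroxylases split. Cyp4a10 fell, at 65.2 ± 3.03 CPM in KO livers and 163 ± 6.73 CPM in control livers (log2 fold change -1.32, SE 0.047, adjusted p = 1.92e-21), whereas Cyp4a14 rose, at 234 ± 5.45 CPM in KO livers and 99.6 ± 1.02 CPM in control livers (log2 fold change 1.23, SE 0.025, adjusted p = 1.92e-28). Cpt1a, the entry enzyme of mitochondrial oxidation, was at 0.11 and Ppara itself at 0.07 with adjusted p = 0.177, both looked up after the list's values were seen. Under a 20% coefficient of variation 9 were lower and 2 higher.

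Among 41 nuclear genes of oxidative phosphorylation, 31 fell and none rose, with a median of -0.18 and none reaching 1.5-fold. Sdhb, the iron-sulfur subunit of complex II, had 156, 156 and 159.8 CPM in KO livers, against 209, 211 and 206 CPM in control livers (log2 fold change -0.41, SE 0.030, adjusted p = 3.51e-13), and the ATP synthase genes Atp5a1 and Atp5b fell by 0.23 and 0.20. No member of this list passed at a coefficient of variation of 20%. Of 13 mitochondrially encoded genes 8 were lower and 1 higher (median -0.31), and with the length and GC trend removed 4 were lower and 1 higher. Of these, mt-Cytb, of complex III, had 11557, 11525 and 11517 CPM in KO livers, against 14678, 15173 and 15047 CPM in control livers (log2 fold change -0.38, SE 0.013, adjusted p = 7.15e-22). All mitochondrially encoded genes together took 6.07 ± 0.0940% of counts in KO libraries and 7.22 ± 0.0525% in control libraries (SD, n = 3 each). Every KO library was below every control library, and p was 0.1 in an exact two-sided permutation test, the lowest value possible with 3 libraries in each group. With the 10 most abundant genes left out of the total, 4 of which are mitochondrially encoded, the share was 1.46 ± 0.0241% in KO libraries and 1.70 ± 0.0288% in control libraries.

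Of 26 bile acid genes, 18 fell and 1 rose, with a median of -0.18. Cyp8b1, the sterol 12-alpha-hydroxylase that sets the share of cholic acid, had 306, 298 and 298 CPM in KO livers, against 625, 609 and 619.9 CPM in control livers, or 48.7% of the control mean (log2 fold change -1.04, SE 0.024, adjusted p = 1.19e-26). Akr1d1, a steroid reductase of the same pathway, had 131, 130.5 and 134 CPM in KO livers, against 220.2, 225 and 236 CPM in control livers (log2 fold change -0.78, SE 0.034, adjusted p = 3.30e-19), and the bile acid uptake transporter Slc10a1 fell by 0.52. Of 26 cholesterol synthesis genes 16 were higher and 6 lower (median 0.17), and with the length and GC trend removed 13 were higher and 7 lower (median 0.0926). They were led by the squalene epoxidase Sqle at 144, 143 and 139 CPM in KO livers, against 84.2, 86.4 and 85.3 CPM in control livers (log2 fold change 0.74, SE 0.035, adjusted p = 7.36e-18). Idi1, Cyp51 and Fdft1, further enzymes of that pathway, rose by 0.37, 0.33 and 0.31. With the coefficient of variation set to 20%, the bile acid list kept 2 lower calls and the cholesterol list 1 higher call.

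Lipid storage genes differed in both directions on chow. Pparg, the nuclear receptor that drives lipid storage genes, had 9.68, 11.7 and 11.4 CPM in KO livers, against 15.8, 14.9 and 16.3 CPM in control livers, lower in every KO library (log2 fold change -0.52, SE 0.089, adjusted p = 1.95e-05). Under a 20% coefficient of variation it did not pass (adjusted p = 0.295). Cd36, a fatty acid transporter, had 50.9, 50.5 and 47.3 CPM in KO livers, against 53.9, 54.9 and 53.7 CPM in control livers, a difference of -0.13 whose adjusted p of 0.0289 was lost in 9 of 18 alternatives, among them those without KO replicate 3 or any 1 control replicate (adjusted p 0.016 to 1 over the alternatives). The 22 lipid droplet and PPARg target genes split into 7 higher and 7 lower (median -0.13). Plin4, a droplet coat protein, rose by 0.70 and Plin5 by 0.37, Plin2 and the lipolysis inhibitor G0s2 fell by 0.25 and 0.40, and Cidea, a droplet fusion protein, had 1.17, 0.980 and 1.42 CPM in KO livers, against 1.90, 1.18 and 2.43 CPM in control livers (log2 fold change -0.63, SE 0.24, adjusted p = 0.0472). The Cidea groups overlapped, and its call was lost without KO replicates 1 or 2 or control replicates 1 or 3, with adjusted p up to 0.359. Fatty acid uptake and binding genes were higher for 5 of 17 and lower for 8 (median -0.13). Acsl1, a long-chain acyl-CoA synthetase, had 787, 799.5 and 802 CPM in KO livers, against 1411, 1405 and 1412 CPM in control livers (log2 fold change -0.82, SE 0.019, adjusted p = 5.72e-27), while Fabp5 and Lpl, which macrophages express as well, rose by 0.93 and 0.81.

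Of 29 lipogenesis genes, 14 fell and 5 rose (median -0.11), while with the length and GC trend removed 18 fell and 2 rose (median -0.19). None of the 29 reached the threshold at a coefficient of variation of 20%. Scd1, the stearoyl-CoA desaturase, had 9243, 9315 and 9237 CPM in KO livers, against 10399, 10491 and 10312 CPM in control livers (log2 fold change -0.17, SE 0.012, adjusted p = 2.49e-13). Me1, Elovl5 and Pklr, which supply NADPH, elongate fatty acids and end glycolysis, fell by 0.47, 0.34 and 0.51. Of 24 phosphatidylcholine genes, 10 fell and 4 rose (median -0.09), with Chpt1, the last enzyme of the CDP-choline route, at -0.43 and Gpcpd1 at -0.53.

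Enzymes that make or use phosphatidic acid, the product of phospholipase D, numbered 31, of which 8 rose and 4 fell (median -0.05), and with the length and GC trend removed 6 rose and 10 fell. Lpin1 (ENSMUSG00000020593), which encodes the phosphatidate phosphatase lipin-1 and also acts as a transcriptional coactivator, had 369, 367 and 373 CPM in KO livers, against 96.0, 95.8 and 96.0 CPM in control livers. The libraries of each group lay close together and the groups were far apart (log2 fold change 1.95, SE 0.028, adjusted p = 2.45e-32). Lpin2, its relative, stood at 367 ± 1.28 CPM in KO livers and 241 ± 2.73 CPM in control livers (log2 fold change 0.60, SE 0.026, adjusted p = 2.51e-19). Pld2, the second classical phospholipase D, rose by 0.37 with adjusted p = 0.00993 and was looked up after its value was seen, whereas Agpat2 and Dgat2, which add acyl chains in triglyceride synthesis, fell by 0.29 and 0.28.

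In the amino acid list of 38 genes, 26 fell and 6 rose, with a median of -0.17. Bhmt (ENSMUSG00000074768), which remethylates homocysteine with betaine, had 2269.7, 2256 and 2213 CPM in KO livers, against 4269, 4284 and 4298 CPM in control livers, or 52.4% of the control mean (log2 fold change -0.93, SE 0.016, adjusted p = 1.47e-30). Cth, which makes cysteine, had 385, 391 and 385 CPM in KO livers, against 678, 670.1 and 664 CPM in control livers (log2 fold change -0.79, SE 0.025, adjusted p = 4.03e-23). Cps1 and Ass1, enzymes of the urea cycle, and Gnmt, which uses S-adenosylmethionine, fell by 0.37, 0.34 and 0.38. Against that direction Tat, a tyrosine aminotransferase induced by glucocorticoids, had 4175, 4152 and 4214 CPM in KO livers, against 2624, 2563 and 2594 CPM in control livers (log2 fold change 0.69, SE 0.015, adjusted p = 4.33e-27), and Sds, serine dehydratase, rose by 0.82. The 28 gluconeogenesis and glycolysis genes split into 9 higher and 12 lower (median -0.02), with Pck1, the control enzyme of gluconeogenesis, at 4078 ± 36.1 CPM in KO livers and 2939.9 ± 56.1 CPM in control livers (log2 fold change 0.47, SE 0.015, adjusted p = 1.86e-22) and Ldha, lactate dehydrogenase, at 0.48. Periportal genes had 8 higher and 13 lower of 22 (median -0.16), with the lysosomal protease gene Ctsc at 0.75. With the coefficient of variation set to 20%, the amino acid list kept 2 lower calls and 1 higher.

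In the apolipoprotein list of 25 genes, 14 fell and 7 rose (median -0.13). Apoa1 rose, at 10353 ± 92.5 CPM in KO livers and 7998 ± 128 CPM in control livers (log2 fold change 0.37, SE 0.014, adjusted p = 1.51e-20), and Apoa2 and Apoc3 fell by 0.34 and 0.25. Cytosolic ribosomal protein genes were higher for 26 of 42 with none lower, but by a median of only 0.10 and by at most 0.19, and none was called at a coefficient of variation of 20%. Iron genes had 8 higher and 10 lower of 25 (median -0.17), among the higher ones Slc39a14, a metal importer, at 0.45. Autophagy and lysosome genes had 13 higher and 8 lower of 34 (median 0.04), with Ctsz, a lysosomal protease, at 0.28 and Lipa, the lysosomal acid lipase, at -0.24. Hepatokines had 10 higher and 13 lower of 24 (median -0.15), with Igfbp1, which binds insulin-like growth factors, at 0.75 and the retinol carrier Rbp4 at -0.23.

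Among 19 growth hormone and STAT5 signalling genes, 11 fell and 6 rose, with a median of -0.29. Socs2, a STAT5 target that dampens growth hormone signalling, had 4.36, 3.87 and 4.17 CPM in KO livers, against 20.04, 20.6 and 17.2 CPM in control livers (log2 fold change -2.22, SE 0.14, adjusted p = 4.03e-15). Onecut1, which encodes the transcription factor HNF6, had 3.50, 3.50 and 4.88 CPM in KO livers, against 17.5, 17.98 and 15.7 CPM in control livers (log2 fold change -2.11, SE 0.16, adjusted p = 6.16e-13). Both were lower in every KO library. Prlr, the prolactin receptor, fell by 0.58 and Egfr, the epidermal growth factor receptor, rose by 0.64. Sex-biased genes showed no common direction among the male-biased ones, 15 higher and 15 lower of 36 (median -0.09), while the 24 female-biased genes split into 13 lower and 6 higher (median -0.35). Scara5, a ferritin receptor gene, had 60.1, 60.6 and 61.9 CPM in KO livers, against 17.7, 17.5 and 17.4 CPM in control livers (log2 fold change 1.79, SE 0.055, adjusted p = 3.35e-23), and Cyp4a12a, a male-biased fatty acid hydroxylase, had 145, 132 and 137 CPM in KO livers, against 247, 248 and 251 CPM in control livers (log2 fold change -0.85, SE 0.038, adjusted p = 9.01e-19). Many Mup genes of the male-biased list are near-identical, and their reads may have been shared. Hepatocyte identity factors were lower for 10 of 22 and higher for 4 (median -0.14), with Hnf4a at 0.29, Foxa3 at 0.70 and Rxra at 0.26 among the higher ones. Under a 20% coefficient of variation the growth hormone list kept 4 lower and 2 higher calls.

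**Figure D4:**
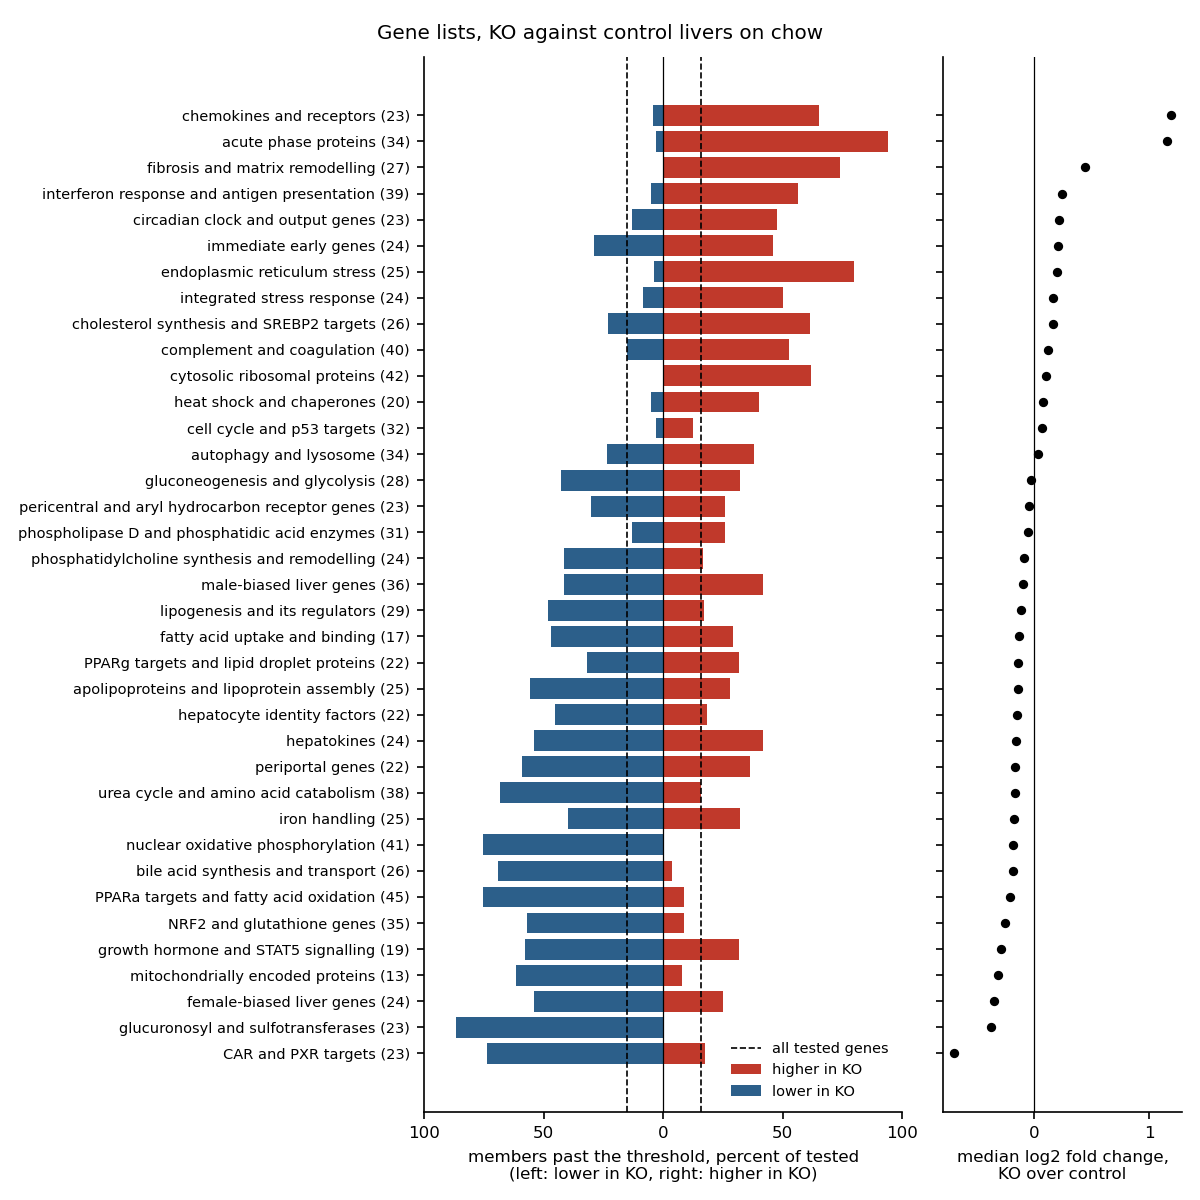
The left panel shows, for each of 37 gene lists, the percent of tested members past the threshold. Higher in KO is to the right and lower to the left. Dashed lines at 15.8% and 15.3% are for all tested genes, not matched for abundance. The right panel shows the median log2 fold change. Tested members are in parentheses, and chemokine and acute phase lists stand at the top with medians of 1.19 and 1.15 (0.67 and 1.17 with a filter of 5 CPM) while CAR and PXR targets stand at the bottom with -0.69.

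Several of the largest differences fell outside those lists. Chrm3, which encodes the M3 muscarinic acetylcholine receptor, had 6.49, 5.83 and 5.64 CPM in KO livers, against 0.0558, 0.0983 and 0.0496 CPM in control livers. That rests on 364 counts in the KO libraries and 4 in the control libraries, so the size of the ratio depends on very few control counts (log2 fold change 6.33, SE 0.34, adjusted p = 1.76e-16). Isyna1, which makes inositol phosphate from glucose 6-phosphate, had 143, 145 and 147 CPM in KO livers, against 23.0, 24.6 and 25.7 CPM in control livers (log2 fold change 2.57, SE 0.054, adjusted p = 5.56e-28). Igdcc4, an immunoglobulin superfamily gene, and Elf3, an epithelial transcription factor, rose by 2.92 and 2.65. Rgs16, whose product shortens G protein signals, had 29.6, 29.9 and 28.6 CPM in KO livers, against 5.19, 6.29 and 6.54 CPM in control livers (log2 fold change 2.28, SE 0.070, adjusted p = 2.82e-23), and Cd14, the co-receptor for bacterial lipopolysaccharide, had 16.8, 17.7 and 16.6 CPM in KO livers, against 4.63, 3.29 and 2.97 CPM in control livers (log2 fold change 2.24, SE 0.14, adjusted p = 5.08e-15). Adcy1, an adenylyl cyclase, rose by 2.20.

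Among the lower genes, Mme, which encodes the membrane peptidase neprilysin, had 1.62, 2.19 and 2.08 CPM in KO livers, against 16.2, 17.2 and 14.3 CPM in control livers (log2 fold change -3.01, SE 0.13, adjusted p = 4.04e-19). Serpinb1a, an inhibitor of neutrophil proteases, had 2.48, 2.38 and 3.56 CPM in KO livers, against 15.2, 17.9 and 16.4 CPM in control livers (log2 fold change -2.56, SE 0.14, adjusted p = 1.12e-16). Both were lower in every KO library. Ctse, the aspartic protease cathepsin E, had 11.3, 11.2 and 12.5 CPM in KO livers, against 46.8, 43.7 and 44.5 CPM in control livers (log2 fold change -1.95, SE 0.063, adjusted p = 1.53e-22), and Sucnr1, the succinate receptor, had 12.2, 10.5 and 11.8 CPM in KO livers, against 32.0, 33.9 and 36.9 CPM in control livers (log2 fold change -1.58, SE 0.077, adjusted p = 1.10e-17). Lrtm1, Gbp11 and Vmn1r90, the last named as a vomeronasal receptor, fell by 2.24, 2.32 and 2.44 on the log2 scale. Nrep, Tchh and the Mup pseudogene Mup-ps16 fell by 1.70, 1.64 and 1.71. Car3, carbonic anhydrase 3, one of the more abundant liver transcripts, had 3109.8, 3075 and 3109 CPM in KO livers, against 5442, 5489 and 5519 CPM in control livers (log2 fold change -0.82, SE 0.015, adjusted p = 1.64e-29); it was written into the adipocyte marker list, but without it that list summed to 16.9 to 20.6 CPM in KO livers against 22.2 to 23.5 CPM in control livers.

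To ask which of these differences were also present under the diet, the chow contrast was set beside KO against control on HFD, which shares no library with it. On HFD 4784 genes passed the threshold (32.4%), 16.7% of tested genes higher and 15.6% lower. Of the 4604 genes called on chow, 1403 were past the threshold the same way on HFD, which is 30.5% of the chow calls and 29.3% of the HFD calls. The opposite way held for 808 (17.55% of the chow calls), and 2393 did not pass on HFD. The difference between the contrasts was tested as an interaction of genotype and diet. It passed for 4411 genes (29.8%), among them 2706 of the 4604 genes called on chow. The genes higher by at least 2-fold on chow had a median log2 fold change of 1.36 there and of 0.17 on HFD. With the coefficient of variation set to 20%, the counts were 931 on chow, 534 on HFD, 101 the same way on both and 510 for the interaction.

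Acute phase genes were mostly higher on both diets, with 30 of 34 higher and 2 lower on HFD and a median of 0.52. Saa2 averaged 129 ± 3.07 CPM in KO livers and 35.8 ± 0.375 CPM in control livers on HFD, a log2 fold change of 1.85 (interaction -1.12, adjusted p = 6.79e-22). Hp averaged 6036 ± 55.6 CPM in KO livers and 3367 ± 65.1 CPM in control livers on HFD and Saa1 averaged 272 ± 1.28 CPM in KO livers and 61.4 ± 1.55 CPM in control livers on HFD. Il1r1 had a log2 fold change of 1.56 on chow and 1.52 on HFD, with an interaction of -0.05 (SE 0.055, adjusted p = 0.56). Serpina1e, an alpha-1-antitrypsin gene with close paralogs, was higher by 0.68 on chow and by 2.18 on HFD. Bhmt, Cyp8b1, Cyp3a11, Ehhadh and Ugt1a9 were lower on both diets, with log2 fold changes of -0.93, -1.04, -0.97, -0.85 and -1.10 on chow and of -0.35, -0.51, -0.57, -0.45 and -0.88 on HFD. Sh3pxd2a, an adaptor of invadopodia, Rdh16, a retinol dehydrogenase, and Clpx, a mitochondrial protease subunit, were also lower on both, with values of -0.85, -0.61 and -0.46 on chow and -1.02, -0.59 and -0.56 on HFD. Pld1 itself differed by -1.39 on chow and -1.45 on HFD (interaction adjusted p = 0.881).

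Other groups had another direction or no common direction on HFD. The matrix list, with 20 of 27 higher on chow, had none higher and 14 lower on HFD, and 22 of its members passed the interaction test. Spp1 was higher by 1.97 on chow and lower on HFD, at -0.65. Chemokine genes had 2 higher and 3 lower of 23 on HFD. Nuclear oxidative phosphorylation genes, 31 of 41 lower on chow, were higher for 24 and lower for 5 on HFD, and 36 of them passed the interaction test. On HFD the fold changes went lower with transcript length (Spearman rho -0.25 over 14762 genes), and on chow rho was 0.044. How far the list counts on HFD go with transcript length was not tested. Bile acid, amino acid and CAR and PXR lists had medians of 0.19, 0.21 and 0.14 on HFD. The bile acid list had 16 higher and 7 lower there, and the amino acid list 29 higher and 4 lower. CAR and PXR targets still had more lower than higher calls on HFD, 11 against 8. Cyp2c54 had 178, 176 and 165 CPM in KO livers on HFD, against 70.5, 66.9 and 70.7 CPM in control livers on HFD, the reverse of chow (interaction 2.56, adjusted p = 5.09e-29). Male-biased genes were higher for 27 of 36 on HFD with none lower. Hsd3b5, a male-biased steroid dehydrogenase gene, was lower on chow at 91.5 ± 2.49 CPM in KO livers and 130.3 ± 2.48 CPM in control livers and higher on HFD, where it had 28.7 ± 2.04 CPM in KO livers and 1.47 ± 0.419 CPM in control livers on HFD (interaction 4.81, adjusted p = 5.83e-26). Cps1 and Igfbp2 likewise were lower on chow, at -0.37 and -0.67, and higher on HFD, at 0.59 and 1.39.

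**Figure D5:**
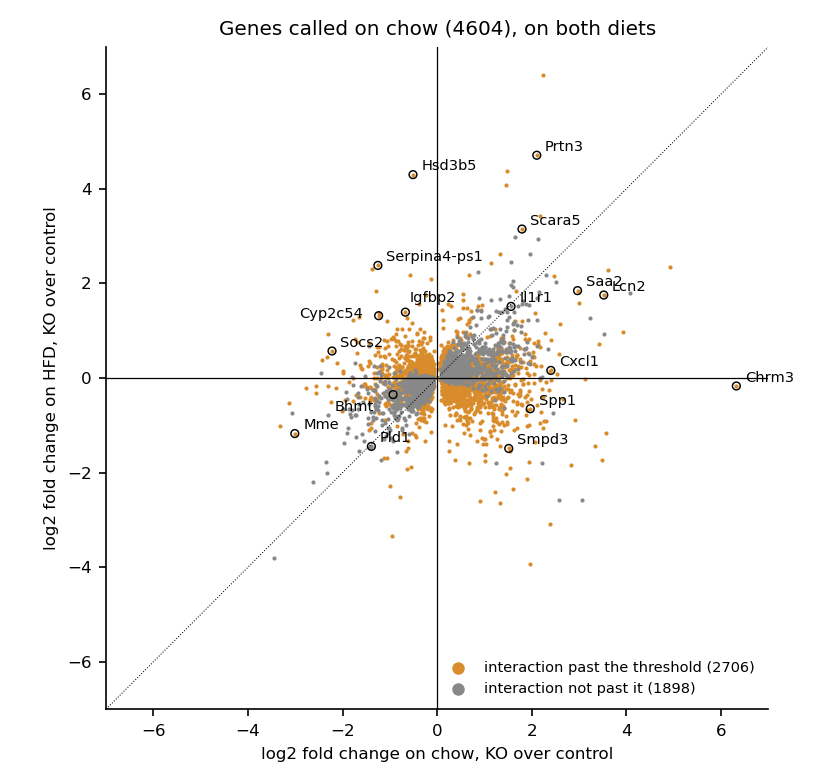
Log2 fold changes of KO over control on chow (horizontal) and on HFD (vertical) for the 4604 genes called on chow, with a dotted line of equal values. Orange points are the 2706 genes whose fold changes differed between the diets by the interaction test and grey points the remaining 1898, and Saa2, Lcn2 and Il1r1 lie in the quadrant of genes higher on both diets while Spp1 lies below 0 on HFD.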

How the data were processed

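Liver RNA of 12 libraries was measured by RNA-seq on an Illumina instrument, from 1 ug of total RNA taken up in TRIzol, per the labels' protocols. The authors deposited 1 table of raw counts of reads per gene, which holds a column for each library, and 53274 of its 53465 gene IDs were given symbols from GENCODE M21. Per the submitters' processing notes, Bowtie 0.12.2 and the mouse build mm8 were used. GENCODE M21, which nearly all gene IDs matched, annotates a later build than mm8, so the build used for counting is not settled. No source used here names the counting tool, the annotation or the strand setting (not given in the sources used here). Antisense and overlapping genes and near-identical paralogs (Mup, Saa, Cyp2c, Ugt, globin) may share reads.

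Counts were analysed in edgeR 4.0.16 (R 4.3.3): genes with low counts were removed by filterByExpr, libraries were scaled by TMM, and the 4 groups of 3 libraries were fitted together. The quasi-likelihood test was used, and p-values were adjusted by Benjamini and Hochberg's method across the 14778 genes. The HFD contrast and the interaction came from the same fit. Standard errors are the absolute log2 fold change over the square root of F. DESeq2 1.42.0, limma-voom 3.58.1, other filters and scalings, a fixed coefficient of variation of 20%, a replicate block, removal of trends on transcript length and GC content, and leaving out each library were alternatives. Removal of the trends also re-centred each library. The model was tested on simulated counts.

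The 37 gene lists, the 13 cell type marker lists and the rule for named genes were chosen with earlier results of these data known. The rule takes Pld1, Pparg and Cd36, up to 15 genes in each direction with the largest fold at 5 CPM or more and no overlap between groups, up to 5 members of each list with the smallest p, up to 8 genes in each direction with the largest interaction, and up to 10 in each direction past the threshold the same way on both diets. Some genes that this rule names are not reported here, and counts over lists and over all genes include them. Counting intervals are not given, and counting error is large for genes with few counts, such as Chrm3 in the control libraries. Libraries within a group differed by more than counting noise. The typical chi-square of a gene between same-group libraries was 1.59 to 2.34 times the value from counting noise alone. Genes whose pair of libraries held under 100 counts were left out of that comparison. Counting noise was therefore not a small part of the spread within groups.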

Additional observations from a re-analysis of the deposited data

Results flagged for a closer look

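The difference between the KO effects on HFD and on chow was tested for every gene, and it passed for 4411 genes, 2706 of them called on chow. There were 808 genes past the threshold in opposite directions on the 2 diets, 17.55% of the genes called on chow. Of the genes higher on chow 13.7% were lower on HFD, beside 15.6% of all tested genes. Of those lower on chow 21.6% were higher on HFD, beside 16.7% of all tested genes. By the rule for named genes, those reported here that were called on chow with the largest interaction were as follows, each given as the HFD fold change minus the chow fold change on the log2 scale. Hsd3b5 had 4.81, Serpina4-ps1 3.63, Ngp 2.91, Vmn1r90 2.83, Socs2 2.79, Ltf 2.62, Prtn3 2.60 and Cyp2c54 2.56, all relatively higher in KO livers on HFD. Cd14 had -2.63, Adcy1 -2.92, Smpd3 -3.003, Elf3 -3.09, Ccdc120 -3.49, Igdcc4 -3.81 and Chrm3 -6.49, all relatively lower there. Ngp, Ltf and Prtn3 are neutrophil granule genes that were higher in KO livers on both diets. Ngp and Ltf belong to the neutrophil marker list, which without Lcn2 summed to 8.70, 8.21 and 8.92 CPM in KO livers on HFD. In control livers on HFD that sum was 2.62, 3.28 and 3.40 CPM, so the HFD folds of Ngp and Ltf rest on low control levels. On chow it was 55.0 to 57.6 CPM in KO livers and 18.9 to 19.6 CPM in control livers. With 3 libraries in each group, no test for a library standing apart within its group was run, and results without each single library are given below.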

How the results depend on the processing

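The calls depended most on the spread assumed. With every gene set to a coefficient of variation of 20%, 931 genes were called on chow, 662 higher and 269 lower, and all 931 differed by at least 1.5-fold. At that setting 534 genes were called on HFD, 510 for the interaction and 101 the same way on both diets, and 122 of the 241 named genes past the threshold on chow lost the call while 119 kept it. Of the lists with calls otherwise, those of lipogenesis, apolipoproteins, cytosolic ribosomal proteins, mitochondrially encoded proteins, nuclear oxidative phosphorylation, stellate cells, exocrine pancreas and mesothelium had none there, while fatty acid uptake, gluconeogenesis and glycolysis, periportal genes, iron handling and hepatokines had more higher than lower calls. Iron handling also had more higher than lower calls with the 5 CPM filter, with DESeq2 and without KO replicate 2. The share of higher calls was 50.8% and became 71.1% at that setting and 38.7% with the length and GC trend removed. A filter of 5 CPM left 690 genes at 1.5-fold or more. The mitochondrial difference was -1.15 percentage points over all counts (6.07% in KO and 7.22% in control libraries). It was -0.2375 with the 10 most abundant genes left out (1.46% and 1.70%). Mitochondrial genes are among those 10, so the 2 differences are not on the same scale. Under the remaining filters, scalings and tools the chow count lay within 1.5 times of 4604, and at most 7 named genes lost the call. Leaving out a chow library gave 3977 to 4115 calls on chow, 1992 to 2087 higher, 1982 to 2032 lower, 1323 to 1386 at 1.5-fold or more, a Pld1 log2 fold change of -1.51 to -1.29 and a mitochondrial difference of -1.19 to -1.10. Leaving out an HFD library gave 4565 to 4676 calls on chow, 2349 to 2374 higher and 2216 to 2302 lower. Leaving out any 1 of the 12 libraries gave 4139 to 4828 calls on HFD, 3934 to 4184 for the interaction and 1265 to 1327 the same way on both diets. List medians near 0 moved by over 1.5 times in some cases. Without KO replicate 1 those of heat shock genes and iron handling were 0.0489 and -0.0241, and without control replicate 1 that of iron handling was -0.0236 and that of phosphatidic acid enzymes -0.0258. Male-biased genes had -0.0309 without KO replicate 2 and -0.049 without control replicate 2, fatty acid uptake had -0.0795 without control replicate 2, autophagy had 0.00844 without KO replicate 3, and gluconeogenesis ranged from -0.035 without KO replicate 3 to -0.00349 without control replicate 1. With the length and GC trend removed, medians were -0.151 for phosphatidylcholine genes, 0.0248 for heat shock genes, 0.134 for stellate cell markers and -0.103 for pericentral genes, 11 of them lower. The median of all tested genes was -0.0455 at that setting. With the 5 CPM filter female-biased genes had -0.211 and iron handling 0.0425, and with no filter hepatocyte identity factors had -0.071. Cd36 lost its call without KO replicate 3 and without control replicates 1, 2 or 3. The same replicate numbers occur in both groups, but same-numbered libraries hardly deviated together (r = 0.014, 0.0615 and 0.0441 over 9430 genes), although each correlated best with its own number. The replicate block gave 4544 calls on chow and did not change the direction of any named gene, while the call for Cidea was lost (adjusted p = 0.0549).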
